A study of Mus musculus with 12 samples.

Results

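Secretory granule genes and calcium sensor genes of the embryonic mouse cerebral cortex are described here across 5 dissected pieces of the cortex and the whole hemisphere. The 8 genes are Scg2, Chga, Chgb, Scg5 and Resp18 of the regulated secretory pathway, the calcium sensor gene Vsnl1, the calmodulin-binding gene Nrgn and the transport adaptor gene Hap1. They are 8 of 8251 genes that the array measures under a single symbol, and they were chosen by measured values in these same arrays, as neuronal genes with a high level in the ventral piece and a low level in the medial piece. Their ventral and medial differences are therefore given as a description, with no test. Tests were made of dorsal against rostral and occipital and of rostral against occipital, which the choice did not use. The hemisphere was also tested against the mean of its pieces: the hemisphere arrays played no part in the choice, but the mean holds the ventral and medial arrays that did.

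Neurons hold neuropeptides and other slow transmitters in dense-core secretory granules, which form at the trans-Golgi network and release their content when calcium rises. Granins, the acidic proteins encoded by Chga, Chgb and Scg2, aggregate in the acidic and calcium-rich lumen of that compartment and help cargo to be packed. Calcium sensors with EF-hand domains and proteins that hold or release calmodulin pass calcium signals on in the cytoplasm. In the cortex several of these genes are widely used as marks of neurons that have left the cell cycle and are maturing.

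The tissue came from E16.5 mouse embryos, at a stage when cortical neurons are still being born, and the labels used here give no strain, genotype or treatment. The groups are the ventral, medial, dorsal, rostral and occipital pieces of the cortex and the undivided hemisphere, with 2 arrays each from independent dissections. The array titles name a rostral piece where the dissection text has a lateral one, and the title is used here. Each of the 12 arrays is an Affymetrix mouse U74A array hybridised with labelled RNA copied from poly(A)+ RNA. A probe set is a group of short oligonucleotides for 1 transcript, and its level is an average difference: each oligonucleotide's signal less that of its mismatched partner, averaged over the set, in arbitrary units that can fall below 0. Levels of different probe sets are not comparable. The negative values served as a measure of noise. Their root mean square, 693.5, was taken as a floor to which lower levels were raised before taking log2, and a level no higher than it is called at the floor.

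The arrays were already scaled to a common trimmed mean by the authors, at 2501.6 to 2501.9 on every array. Across probe sets, r between the replicates of a group was 0.901 to 0.962. Rostral replicate 2 and occipital replicate 1 stood apart from their labels: they correlated with each other at r = 0.963, above the 0.934 between the rostral arrays and the 0.936 between the occipital arrays. Medial and dorsal replicate 1 (r = 0.965) and occipital and hemisphere replicate 2 (r = 0.969) correlated at least as closely. The cortical genes Tbr1, Neurod6, Neurod2 and Fezf2 were above 1387, or 2 times the floor, on all 12 arrays. The actin 5′ to 3′ signal ratio, a measure of RNA integrity, was 0.665 on ventral replicate 1, against 0.706 to 0.831 on the other pieces of that number. On ventral replicate 2 it was 0.856, against 0.840 to 0.887.

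The array carries 10 probe sets for the 8 genes, and 8 of them, 1 for each gene, passed the filter of at least 2 arrays above 1387. That filter let 5832 of 12422 probe sets through, for 4562 genes with a single symbol. A gene that is high in 1 piece can pass through that piece alone. The second Chga probe set lay between -1521 and -124 and the second Chgb probe set between -55.6 and 244, so both were at the floor on all 12 arrays and neither is used further. Scg5, Chgb and Hap1 were above 1387 on all 12 arrays, Scg2 and Vsnl1 on 10, Chga on 7, Nrgn on 5 and Resp18 on 4.

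Of the 3 granins, Scg2 showed the widest range. Scg2 encodes secretogranin II, the precursor of the peptide secretoneurin, and lies on chromosome 1 at 79434366 to 79440026 (GRCm38.p6). Its level was 9187 and 8316 on the ventral arrays (replicate 1 first, here and below), against 397 and 152 on the medial arrays, 1665 and 1387 on the dorsal, 3003 and 2246 on the rostral, 2187 and 2619 on the occipital and 2940 and 2588 on the hemisphere arrays. Both ventral arrays lay far above every other array, the medial arrays were at the floor, and the dorsal arrays lay between the medial arrays and the rest. Hemisphere, rostral and occipital levels overlapped.

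Chgb encodes chromogranin B and lies on chromosome 2 at 132781642 to 132795079. It had the same order at the ends of the range, on a far narrower scale. Its level was 7311 and 7347 on the ventral arrays, against 3703 and 3393 on the medial, 4434 and 4757 on the dorsal, 5554 and 4904 on the rostral, 5486 and 5079 on the occipital and 4358 and 4890.0 on the hemisphere arrays. The ventral arrays differed by less than any gap to another piece, and the medial arrays were the lowest. The Chgb probe set carries the suffix of sets designed to a region that related transcripts may share.

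Chga, the gene of chromogranin A, lies on chromosome 12 at 102554941 to 102565027 and did not have the pattern by which the other genes were chosen. Its level was 1844 and 1308 on the ventral arrays, against 1821 and 2537 on the medial, 2042 and 1283 on the dorsal, 1996 and 687 on the rostral, 2202 and 1499 on the occipital and 1229 and 491 on the hemisphere arrays. The medial piece had the highest mean and the hemisphere the lowest, and every group overlapped its neighbour in that order. The ventral arrays lay within the range of the other pieces. Chga thus goes against the description of the set in both pieces.

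Stretches of 100 bases just upstream of the annotated starts of the 3 granin genes are shown because granin promoters are known for a cyclic AMP response element, an 8-base site bound by CREB-family factors. The sequences are from RefSeq (GRCm38.p6), each on its gene's own strand, with the site or its 1-base variant in capitals.
Scg2 (chr1:79440027-79440126, minus strand): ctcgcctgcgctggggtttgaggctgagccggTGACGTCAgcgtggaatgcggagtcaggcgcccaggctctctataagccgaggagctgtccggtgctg
Chgb (chr2:132781542-132781641, plus strand): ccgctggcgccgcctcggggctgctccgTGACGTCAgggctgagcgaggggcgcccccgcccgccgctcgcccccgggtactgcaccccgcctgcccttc
Chga (chr12:102554841-102554940, plus strand): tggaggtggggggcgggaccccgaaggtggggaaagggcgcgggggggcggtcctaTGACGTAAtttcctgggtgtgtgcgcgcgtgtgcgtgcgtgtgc

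The motif TGACGTCA, which reads the same on both strands, was searched in the 250 bases upstream of all annotated starts. It occurs 68 to 61 bases upstream of the Scg2 start and 72 to 65 bases upstream of the Chgb start, and in 508 of 32851 windows (1.55%). The spelling TGACGTAA, added after the windows had been read and searched on both strands, occurs 44 to 37 bases upstream of the Chga start and in 147 windows (0.447%). All 8 genes matched the table, with 10 windows in all, and the other 5 genes had neither spelling there. A match of letters is no evidence of binding.

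Scg5 and Resp18 encode proteins of the secretory pathway that are not granins in the narrow sense. Scg5, also known as 7B2, is the chaperone of prohormone convertase PC2, and lies on chromosome 2 at 113776313 to 113829091. Its level was 19065 and 19627 on the ventral arrays, against 16376 and 16830 on the medial, 16270 and 16135 on the dorsal, 17156 and 17062 on the rostral, 18215 and 16893 on the occipital and 18876 and 17516 on the hemisphere arrays. Scg5 was high everywhere and varied least of the 8. The ventral arrays were above every other array, but the lowest piece was the dorsal one and not the medial.

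Resp18 encodes a protein of endocrine and neuroendocrine cells that is found in the lumen of the secretory pathway, and lies on chromosome 1 at 75272197 to 75278415. Its level was 3608 and 3095 on the ventral arrays, against 430 and 515 on the medial, 341 and 271 on the dorsal, 1091 and 1369 on the rostral, 1580 and 1321 on the occipital and 1380 and 1441 on the hemisphere arrays. Both medial and both dorsal arrays were at the floor, so the order of those pieces has no meaning. The other 3 groups lay between them and the ventral arrays.

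Vsnl1 encodes visinin-like protein 1, a neuronal calcium sensor that moves to membranes when it binds calcium, and lies on chromosome 12 at 11325257 to 11436578. Its level was 11974 and 10369 on the ventral arrays, against 1138 and 1036 on the medial, 1956 and 1942 on the dorsal, 2843 and 3648 on the rostral, 4543 and 3044 on the occipital and 3443 and 3530.0 on the hemisphere arrays. The steps were ordered as for Scg2, with ventral arrays highest, a group of rostral, occipital and hemisphere arrays that overlapped, and then dorsal and medial arrays. All Vsnl1 values were above the floor.

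Nrgn encodes neurogranin, a postsynaptic protein that binds calmodulin when calcium is low, and lies on chromosome 9 at 37544493 to 37552745. Its level was 3378 and 5110 on the ventral arrays, against 236 and 181 on the medial, 514 and 467 on the dorsal, 2044 and 191 on the rostral, 491 and 2270 on the occipital and 554 and 2018 on the hemisphere arrays. The ventral arrays were again the highest. Replicates of the rostral, occipital and hemisphere groups disagreed strongly: 1 array of each was at the floor and the other above 1387. Nrgn had the largest replicate spread of the 8 relative to its level.

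Hap1 encodes huntingtin-associated protein 1, which links vesicle cargo to dynactin and kinesin, and lies on chromosome 11 at 100347327 to 100356982. Its level was 8315 and 9374 on the ventral arrays, against 1478 and 2477 on the medial, 2717 and 2875 on the dorsal, 3701 and 5360 on the rostral, 5505 and 4509 on the occipital and 2866 and 4073 on the hemisphere arrays. The ventral arrays were above all others and the medial arrays below all others.

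**Figure D1:**
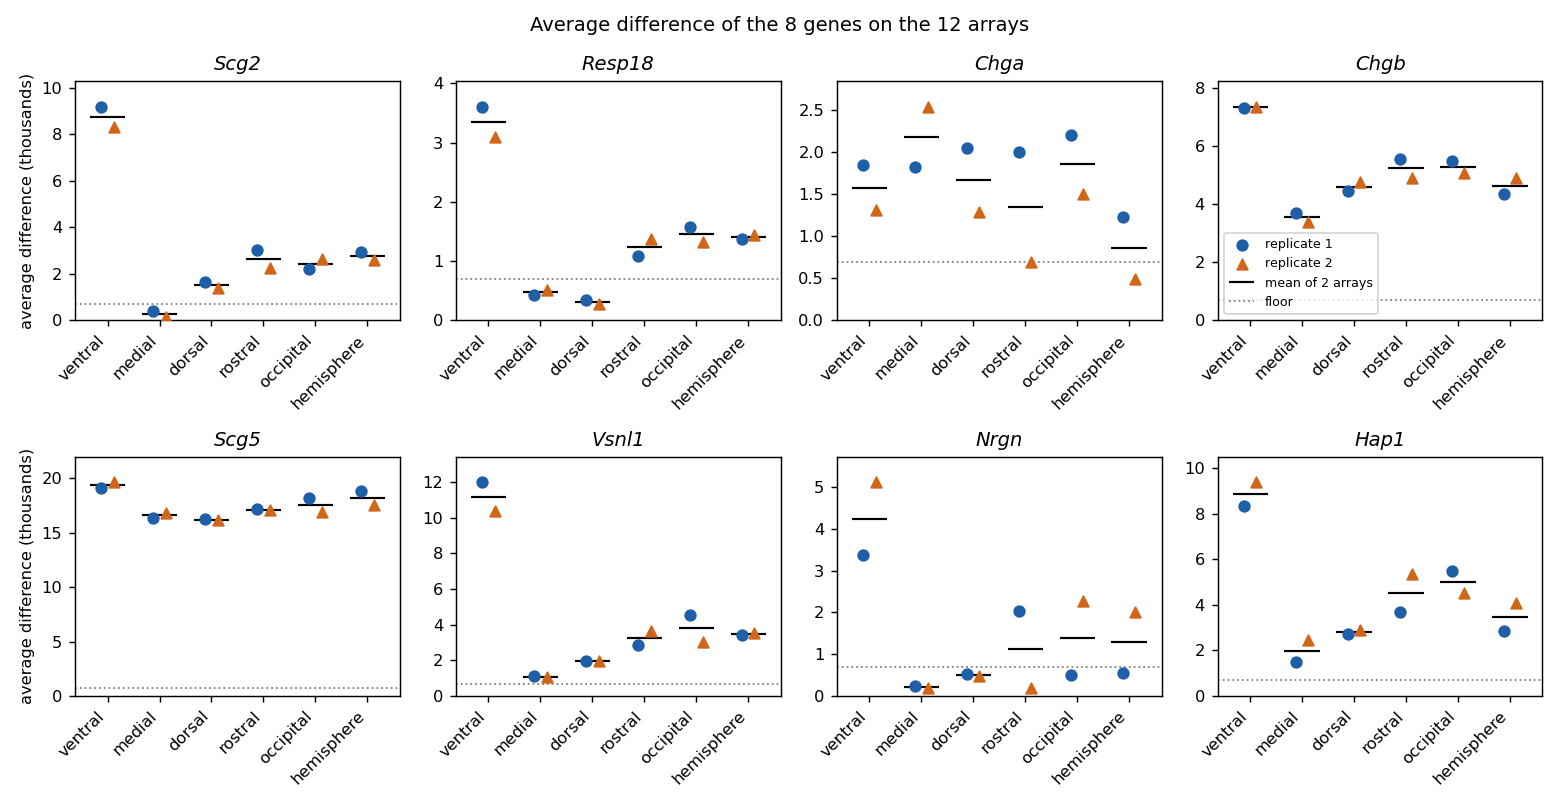
Average difference (arbitrary units, scaled as each axis states) of the 8 genes on each of the 12 arrays, 1 panel a gene, with groups along the horizontal axis, points for the replicates, short lines for their mean and a dotted line for the floor. The ventral arrays are the highest in every panel but that of Chga, and Nrgn shows replicates far apart in the rostral, occipital and hemisphere groups.

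In 7 of the 8 genes both ventral arrays lay above all 8 arrays of the other pieces, which also holds for 11.2% of all tested genes. In 4 of the 8, Scg2, Chgb, Vsnl1 and Hap1, both medial arrays lay below all 8 others, as for 5.7% of tested genes. The choice of genes used these comparisons, so nothing is read from the counts. On the log2 scale the ventral piece minus the mean of the other 4 pieces was 2.45 for Scg2, 2.31 for Vsnl1, 2.17 for Nrgn, 1.80 for Resp18, 1.42 for Hap1, 0.67 for Chgb and 0.20 for Scg5. For Chga it was -0.09. Of the 8 arrays of the other pieces, 2 were at the floor for Scg2, 6 for Nrgn, 4 for Resp18 and 1 for Chga, so those differences depend on the floor and their order has no meaning. Over the alternative settings Scg2 ran from 2.20 to 3.09, Nrgn from 1.42 to 2.74 and Resp18 from 1.25 to 2.27. Of the genes with no array at the floor, Vsnl1 was 4.97-fold, Hap1 2.68-fold, Chgb 1.59-fold and Scg5 1.15-fold higher in the ventral piece.

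The medial piece minus the mean of the other 4 pieces was -2.12 for Scg2, -1.89 for Vsnl1, -1.34 for Hap1, -1.05 for Nrgn, -1.04 for Resp18, -0.64 for Chgb and -0.08 for Scg5. Chga had 0.50, with -0.15 within replicate 1 and 1.14 within replicate 2. The medial arrays of Scg2 were at the floor and none of the other 8 were, so its medial level was at least 4.35-fold lower with this floor. For Nrgn and Resp18 the medial arrays and also 4 and 2 of the other 8 were at the floor, so no bound can be given. Over the alternative settings the medial difference ran from -3.02 to -1.12 for Scg2, -1.74 to -0.55 for Nrgn and -1.35 to -0.34 for Resp18. The ventral and medial comparisons share arrays and are not separate observations.

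Summed neuron markers were highest in the ventral piece and lowest in the medial piece. Summed progenitor markers had the reverse order at these ends. The dorsal sums did not follow the members in this way, as described below. Of 15 neuron markers 14 were on the array, and their summed level was 326434 to 332161 on the ventral arrays and 206605 to 258397 on the medial arrays, against 259267 to 298382 on the dorsal, 268596 to 281262 on the rostral and 292331 to 297522 on the occipital arrays. Of 12 tested, 6 rose in the ventral piece and 1 fell in the medial piece (limma, adjusted p under 0.05). The 13 progenitor markers on the array summed to 28962 to 31351 on the ventral arrays and 73110 to 74715 on the medial arrays, against 46430 to 46889 on the dorsal, 54738 to 58227 on the rostral and 49174 to 56553 on the occipital arrays. Of 11 tested, 7 fell in the ventral piece and 3 rose in the medial piece. The level of a sum is set most by probe sets with high levels, such as Tubb3 and Stmn2 for neurons and Sox2 and Nes for progenitors. Not all of these differed between the end pieces. Sox2 was alike on the ventral (12975 and 9461) and medial arrays (12810 and 10558). Tubb3 overlapped (83535 and 76772 against 62216 and 77861). Of the progenitor markers, Eomes (231 and 240 against 7361 and 9542) and Neurog2 (155 and 483 against 7141 and 9904) differed most in level. A sum does not measure the number of cells. In bulk tissue fewer cells of a type and less RNA per cell cannot be told apart, and the part of these markers in the members' levels was not tested.

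Hypothalamus and pituitary are rich in granins, Resp18 and Hap1, and their markers were looked at for that reason. The pituitary hormone genes Prl, Pomc, Cga and Fshb were not above the floor on any array, and the 8 genes of that list on the array summed to 8164 to 9516 on the ventral arrays, against 5771 to 10557 on the others. Of the same list Gh was above 1387 on all 12 arrays, at 2966 to 4778, Lhb on 8 and Tshb on 3, and 0 of 3 tested rose or fell in the ventral piece. Not above the floor on any array were the thalamic and hypothalamic genes Lhx9, Sim1, Gbx2, Hmx3, Lhx1, Lhx5 and Shox2. The 10 genes of that second list on the array summed to 6393 to 8087 on the ventral arrays, against 582 to 5198 on the others, and of 2 tested 1, Tcf7l2, rose in the ventral piece. Six3, the other tested gene, had 1273 and 1443 on the ventral arrays and was at the floor on the medial and dorsal arrays. It had 1380 on rostral replicate 2 and 1827 on occipital replicate 1. Otp, not tested, reached 1028 at most. The 6 striatal markers on the array summed to 21955 and 22679 on the ventral arrays, against 2827 and 3655 on the medial and 5281 and 5686 on the dorsal arrays, and 3 of 5 tested rose in the ventral piece. The 4 cortical markers summed to 38229 to 47888 on the ventral arrays, against 64079 to 91484 on the arrays of the other pieces, and 2 of the 4 fell in the ventral piece. Tbr1 did not follow that sum, with 20333 and 21076 on the ventral arrays, against 13630.5 to 24036 on the arrays of the other pieces. Of all tested genes 4.34% rose and 5.74% fell in the ventral piece. The part of striatal or cortical cells in the members' ventral levels was not tested.

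The dorsal piece was then compared with the mean of the rostral and occipital pieces, a comparison that did not choose the genes. The dorsal level was lower for 7 of the 8, and 0 of 8 passed limma's test after Benjamini-Hochberg adjustment over all tested probe sets, where 0.197% of tested genes passed. At an unadjusted p under 0.05, 4 of 8 differed, against 5.63% of all tested genes. These were Resp18, Vsnl1, Scg2 and Hap1, all lower in the dorsal piece. Their profiles over the arrays are much alike, as given below, so they are not separate observations. The test also shares its estimate of spread with the ventral and medial comparisons that chose the genes.

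Resp18 came nearest to the threshold. It averaged 306 ± 49.5 in the dorsal piece (SD, n = 2) and 1340 ± 201 in the rostral and occipital pieces (SD, n = 4), a log2 difference of -0.94 ± 0.15 (SE; adjusted p = 0.0733 by limma). Both dorsal arrays were at the floor and none of the other 4, so the dorsal level was at least 1.92-fold lower with this floor. The groups did not overlap. The call depended on the settings: Resp18 passed with a floor of 347 (adjusted p = 0.00216) and on an arcsinh scale (adjusted p = 0.00783). With a floor of 1387, which is above 3 of the other 4 arrays, its log2 difference was -0.047 (adjusted p = 1).

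Vsnl1 averaged 1949 ± 9.69 in the dorsal piece (SD, n = 2) and 3520 ± 764 in the rostral and occipital pieces (SD, n = 4), a log2 difference of -0.83 ± 0.19 (SE; adjusted p = 0.230 by limma). Scg2 averaged 1526 ± 196 in the dorsal piece and 2514 ± 378 in the rostral and occipital pieces, a log2 difference of -0.71 ± 0.17 (SE; adjusted p = 0.260 by limma). Hap1 averaged 2796 ± 112 in the dorsal piece and 4768 ± 837 in the rostral and occipital pieces, with a log2 difference of -0.75 ± 0.25 (SE; adjusted p = 0.554 by limma). For all 3 genes the dorsal arrays lay below all 4 rostral and occipital arrays. Within replicate 1 and within replicate 2 the differences were -0.88 and -0.78 for Vsnl1, -0.62 and -0.81 for Scg2, -0.73 and -0.77 for Hap1 and -0.92 and -0.96 for Resp18. Without rostral replicate 2 and occipital replicate 1 the log2 differences were -0.79 for Resp18, -0.59 for Vsnl1, -0.88 for Scg2 and -0.55 for Hap1, again with 0 of 8 passing.

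The other 4 genes differed by less or varied more. Nrgn had a log2 difference of -0.82 with a 95% interval of -2.17 to 0.53, and Chga one of 0.15 with an interval of -0.85 to 1.14. Chgb had -0.19 (interval -0.49 to 0.11) and Scg5 -0.10 (interval -0.37 to 0.18). The intervals of Chgb and Scg5 leave room for small differences only, while those of Nrgn and Chga are wide. The summed neuron markers of the dorsal arrays, given above, lay on both sides of the rostral and occipital range. Their progenitor sums (46430 to 46889) lay below all rostral and occipital arrays (49174 to 58227), and their cortical marker sums (80251 to 91484) above all of them (64079 to 70056). The striatal marker sums of the dorsal arrays (5281 and 5686) lay within the rostral and occipital range (4062 to 12014). Of these markers Penk, at the floor on the dorsal arrays, was lower there than on all rostral and occipital arrays, and Foxp1 was higher. Tac1 was at the floor on the dorsal arrays and also on rostral replicate 1 and occipital replicate 2, so its order among those arrays has no meaning. The part of these cells in the dorsal differences was not tested.

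**Figure D2:**
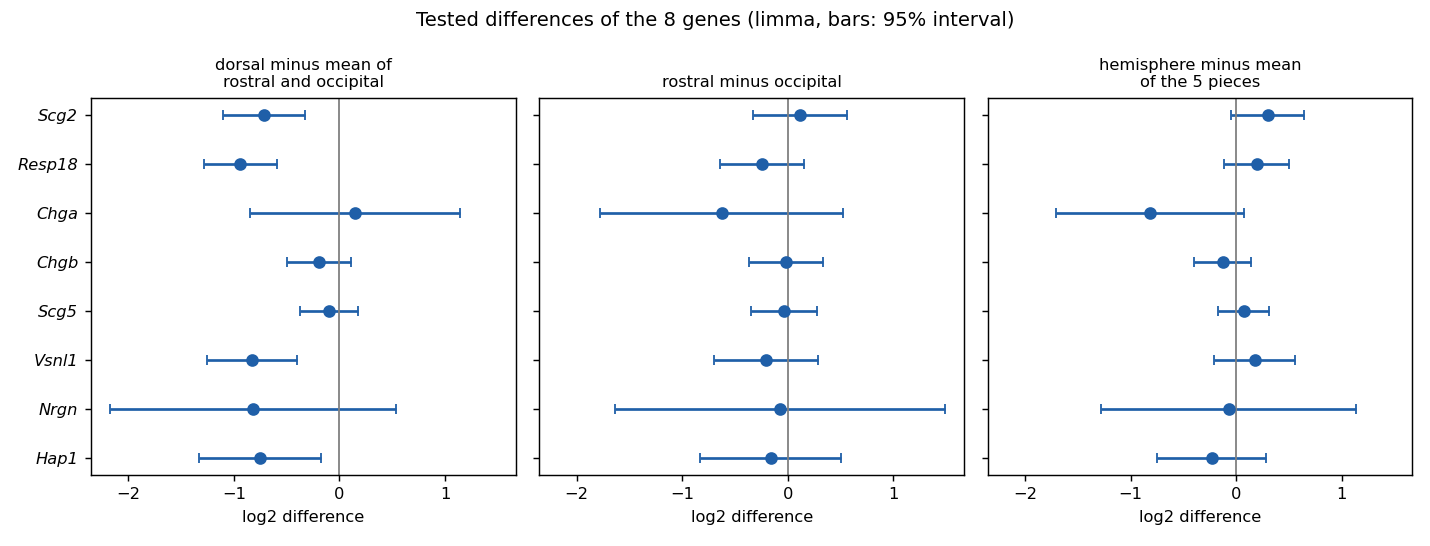
Log2 differences of the 8 genes in the 3 tested comparisons, with points for the limma estimate and bars for its 95% interval. In the dorsal panel the intervals of Scg2, Resp18, Vsnl1 and Hap1 lie below 0, without passing the adjusted test, and in the other panels every interval includes 0.

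Rostral against occipital compares the pieces as the array titles name them. The dissection text has a lateral piece in place of the rostral one, so it is not settled that this is the front-to-back axis. No gene passed: 0 of 8, with 0% of all tested genes passing limma's adjusted test, and 0 of 8 at an unadjusted p under 0.05 against 1.07% of tested genes. The replicates gave opposite signs in 7 of the 8 genes. Rostral minus occipital was 1.56 in replicate 1 and -1.71 in replicate 2 for Nrgn, the widest disagreement. Occipital replicate 1 and rostral replicate 2 were at the floor for Nrgn, so both sizes depend on the floor. Scg2 had 0.46 in replicate 1 and -0.22 in replicate 2.

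The signs ran the other way for the next genes. Vsnl1 had -0.68 within replicate 1 and 0.26 within replicate 2, Hap1 -0.57 and 0.25, and Resp18 -0.53 and 0.05. Chgb (0.02 and -0.05) and Scg5 (-0.09 and 0.01) were close to 0 in both. Only Chga kept its sign, with -0.14 and -1.11. Rostral replicate 2 was at the floor for Chga, so the size of the second value depends on the floor.

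Rostral replicate 2 and occipital replicate 1 resembled each other more than the other array of their own piece. Striatal marker sums were 4062 on rostral replicate 1 and 11278 on rostral replicate 2, against 12014 on occipital replicate 1 and 5258 on occipital replicate 2. Penk, the proenkephalin gene of striatal neurons, had 911 and 2748 on the rostral arrays, against 3120 and 1396 on the occipital arrays. Vsnl1, Hap1 and Resp18 were higher on rostral replicate 2 and occipital replicate 1 than on the other array of each piece, and Nrgn and Scg2 were lower. The part of striatal tissue in these differences was not tested.

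**Figure D3:**
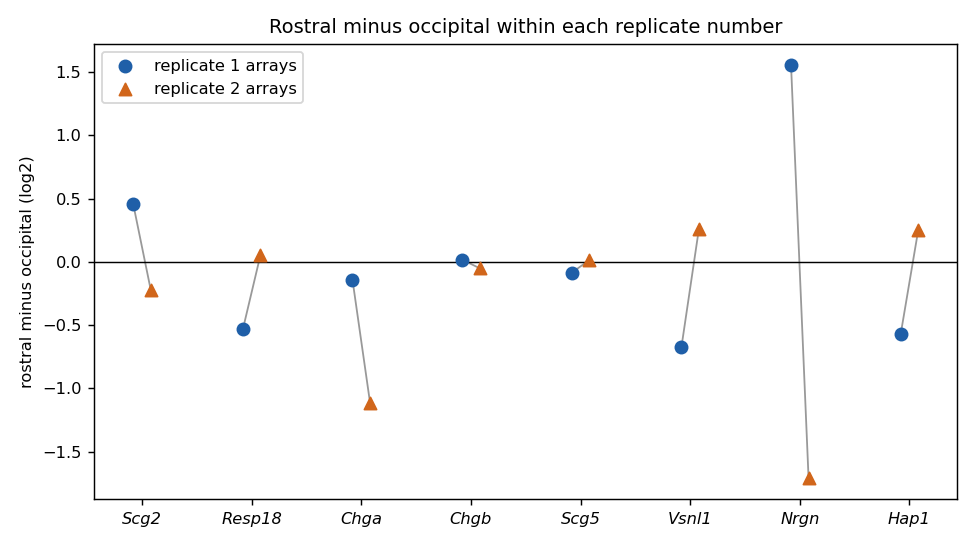
Rostral minus occipital log2 difference of each of the 8 genes within replicate 1 (circles) and within replicate 2 (triangles), joined by a line for each gene. The lines of all genes but Chga cross 0, and that of Nrgn is the longest.

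The hemisphere contains all pieces, and its arrays were set against the unweighted mean of the 5 pieces. Again 0 of 8 genes passed, with 0% of tested genes passing limma's adjusted test, and 0 of 8 at an unadjusted p under 0.05 against 4.49% of tested genes. The log2 difference was 0.30 for Scg2 (95% interval -0.05 to 0.64), 0.19 for Resp18 (-0.11 to 0.50) and 0.17 for Vsnl1 (-0.21 to 0.56). It was 0.07 for Scg5 (-0.17 to 0.31), -0.13 for Chgb (-0.40 to 0.14) and -0.23 for Hap1 (-0.75 to 0.28). These intervals include 0 and none reaches 1 on either side. The mean of the pieces was taken on the log2 scale. Without log2 the hemisphere averaged less than the pieces for Scg2 (2764 against 3116) and Vsnl1 (3486 against 4249). The signs of these genes thus depend on the scale. For Resp18, Scg5, Chgb and Hap1 the direction was the same on both scales.

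Chga and Nrgn were less well determined. Chga averaged 860.1 ± 522 in the hemisphere (SD, n = 2) and 1722 ± 536 over the pieces (SD, n = 10), a log2 difference of -0.82 with an interval of -1.71 to 0.07 (adjusted p = 0.962 by limma). The interval for Nrgn, -1.28 to 1.14 around -0.07, does not limit the difference to less than 2-fold in either direction.

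Genes of the same pathways were taken from 4 lists with 132 genes, of which 54 were tested, the members left out. In the ventral piece 11 of the 54 rose and 0 fell, against the other 4 pieces. In the medial piece 0 rose and 2 fell. Over all tested genes, the share that rose was 4.34% in the ventral piece and 0.658% in the medial piece, and the share that fell was 5.74% and 0.701% in the same order. The lists were drawn up with earlier results of these data known, and the comparisons are those by which the members were chosen. Penk and Tac1 are also among the striatal markers above. The counts therefore describe, and they are not independent of the choice. The ventral calls depended on both ventral arrays: 2 genes passed without ventral replicate 1 and 3 without ventral replicate 2.

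Of 14 tested genes of granule biogenesis and prohormone processing, 2 rose and 0 fell in the ventral piece, with a median log2 difference of 0.39 where the median of all tested genes was -0.02. Cyb561, the cytochrome that carries electrons across granule membranes to keep ascorbate reduced, had 3131 and 2897 on the ventral arrays, against a lowest level of 353, a median of 734 and a highest of 1999 on the 8 arrays of the other pieces. The groups did not overlap. It averaged 3014 ± 165 (SD, n = 2) in the ventral piece and 1027 ± 639 (SD, n = 8) in the others, a 3.03-fold difference (adjusted p = 0.0133 by limma), with 3 of the 8 at the floor. The call was lost without either ventral array and without the filter. Atp6ap1, an accessory subunit of the proton pump that acidifies granules, rose 1.52-fold (9204 ± 14.0 in the ventral piece, SD, n = 2, and 6077 ± 737 in the others, SD, n = 8; adjusted p = 0.0236 by limma). Its call was lost without either ventral or either dorsal array. Genes with a known granule role that did not pass were Ptprn (0.84, adjusted p = 0.0862), the priming factor Cadps (0.64, adjusted p = 0.0862), carboxypeptidase E (Cpe, 0.52, adjusted p = 0.151) and the amidating enzyme Pam (-0.98, adjusted p = 0.188). The granin Scg3 differed by 0.04. The probe sets of Cadps, Cpe and Scg3 are ones that related transcripts may share.

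The cargo of granules includes neuropeptides. Of 9 tested precursors 4 rose in the ventral piece and 0 fell: Penk (3.36, adjusted p = 0.00195), the somatostatin gene Sst (2.83, adjusted p = 0.00155), the tachykinin gene Tac1 (1.98, adjusted p = 0.0468) and the neuropeptide Y gene Npy (0.84, adjusted p = 0.00397). In the medial piece Sst fell by 2.35 (adjusted p = 0.0186) and Npy fell by 1.40 (adjusted p = 0.0033) on the log2 scale. Both calls were lost without medial replicate 2, and that of Sst also without either ventral array and without the filter. Npy had 17194 and 14337 in the ventral piece, against 26128 and 27369.7 in the dorsal piece, where it was highest. Its ventral rise is thus a comparison with a mean over unlike pieces, and it was lost without ventral replicate 1. The Tac1 call was kept in 4 of the 12 fits that left out 1 array and lost under both other filters, and 6 of its 8 arrays of the other pieces were at the floor. Penk is read on a probe set that related transcripts may share, and the cholecystokinin gene Cck (1.62, adjusted p = 0.0536) did not pass.

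Calcium sensors and the calmodulin pathway had 16 tested genes. In the ventral piece 4 of them rose and 0 fell, with a median log2 difference of 0.42. Calb1, the calcium buffer calbindin, had 4413 and 4217 on the ventral arrays, against a lowest level of -378, a median of 895.5 and a highest of 2653 on the other 8 (log2 difference 1.95, adjusted p = 0.00513 by limma). Of those 8 arrays 4 were at the floor, and the groups did not overlap. Hpcal1, a neuronal calcium sensor of the Vsnl1 family whose probe set related transcripts may share, rose by 0.92 (adjusted p = 0.00661). Gap43, a growth cone protein that shares the calmodulin-binding IQ motif of neurogranin, rose by 0.82 (adjusted p = 0.00961 by limma). Its probe set is also one that related transcripts may share. Ppp3ca, the catalytic subunit of the calmodulin-dependent phosphatase calcineurin, rose by 0.48 (adjusted p = 0.0453). The calls of Calb1, Hpcal1 and Gap43 were lost without either ventral array. The call of Ppp3ca was kept in 3 of the 12 fits that left out 1 array. Hippocalcin (Hpca, 0.95, adjusted p = 0.121) and the neuronal calcium sensor gene Ncs1 (-0.03) did not pass.

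Partners of Hap1 and microtubule transport genes had 15 tested members, of which 1 rose and 0 fell in the ventral piece, with a median of 0.09. Ahi1, whose protein forms a stable complex with Hap1, had 8287 and 7396 on the ventral arrays, against a lowest level of 3010, a median of 4359 and a highest of 5749 on the other 8. It averaged 7842 ± 631 (SD, n = 2) in the ventral piece and 4425 ± 1147 (SD, n = 8) in the others, a 1.82-fold rise (adjusted p = 0.00535 by limma), with no overlap, and the call was lost without either ventral array. The huntingtin gene Htt itself differed by 0.25 (adjusted p = 0.480) and did not pass. In the medial piece 0 genes of the granule, calcium sensor and Hap1 lists passed, with medians of -0.07, -0.17 and -0.15. The neuron and progenitor marker sums that differ between the pieces stand beside these counts too, and their part was not tested.

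**Figure D4:**
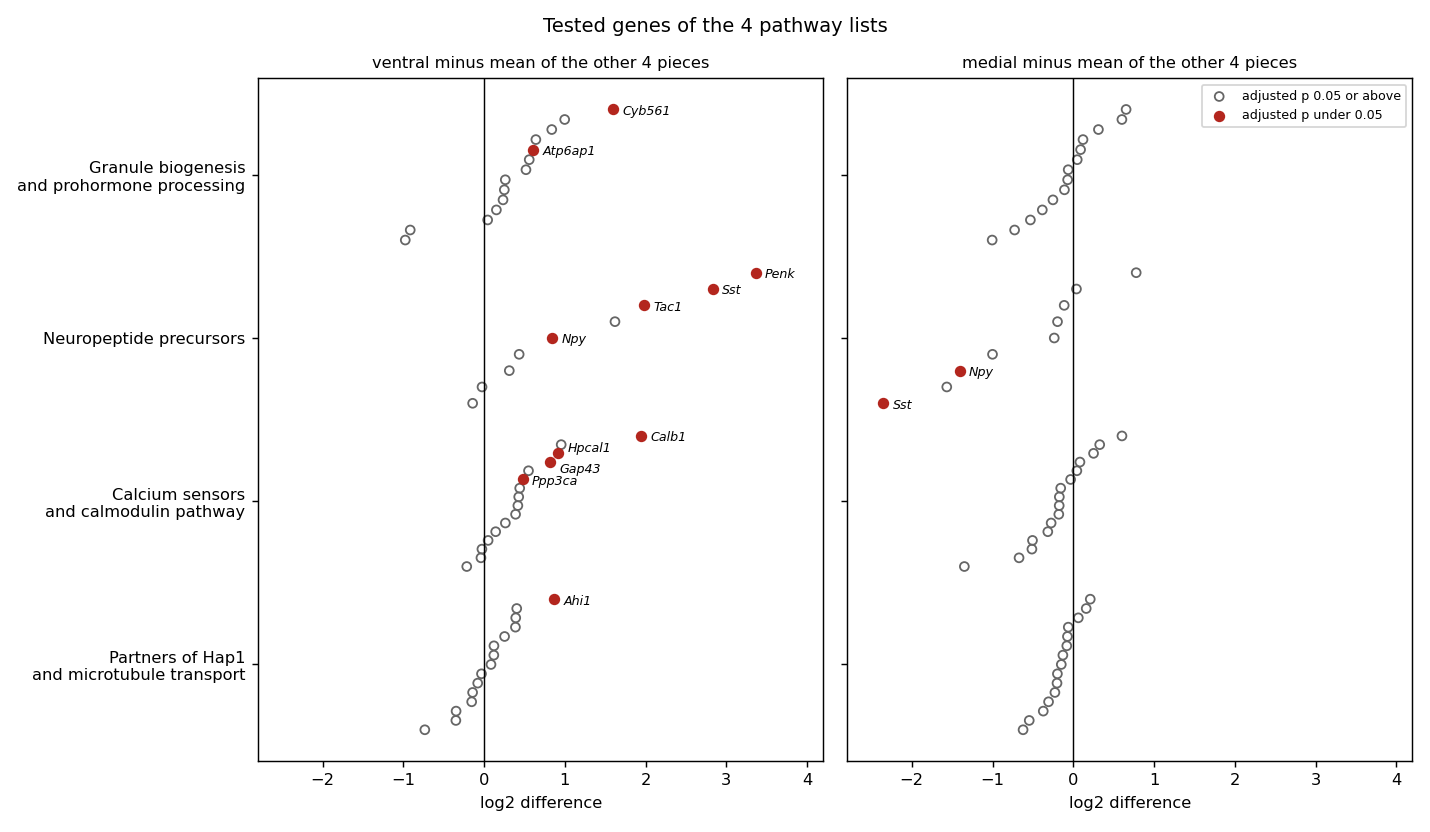
Log2 difference of each tested gene of the 4 lists in the ventral piece (left) and the medial piece (right) against the other 4 pieces, 1 row a gene, with filled points for genes at an adjusted p under 0.05. The 11 filled points of the left panel are all above 0, and the 2 of the right panel, Sst and Npy, are below 0.

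The 8 genes followed a shared profile to different degrees. Each gene's log2 levels over the 12 arrays were standardised and averaged, and the correlation with that mean was 0.962 for Vsnl1, 0.958 for Resp18, 0.955 for Scg2, 0.943 for Chgb, 0.915 for Hap1, 0.854 for Scg5 and 0.823 for Nrgn. For Chga it was -0.04. Each gene is part of the mean it is set against, and the arrays share tissue and processing, so these values only describe.

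Among 4554 other tested genes, the 10 most like the mean profile of the 8 had r = 0.933 to 0.956 over the 12 arrays. They were Blcap, Slc1a6, Prkcb, Fam171a1, Marchf6, Chmp4b, Dnm1, Ndrg4, Nsf and Azin1. Prkcb encodes a calcium-dependent protein kinase C, and its level was 14609 ± 2034 in the ventral piece and 3381 ± 195 in the medial piece (SD, n = 2 each). Nsf, the ATPase that recycles SNARE complexes after vesicle fusion, had 8793 ± 2484 in the ventral piece and 1453 ± 150.2 in the medial piece (SD, n = 2 each). Dnm1, which encodes the dynamin of synaptic vesicle retrieval, had 22830 ± 2978 in the ventral piece and 6328 ± 1494 in the medial piece (SD, n = 2 each). Slc1a6, a glutamate transporter gene, was at the floor on 3 arrays. These genes were picked for their likeness, and their levels are a description.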

How the data were processed

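Average differences (intensity, arbitrary units) of 12488 probe sets on 12 arrays were used as the authors deposited them. Per the labels' protocols, each array was scanned 2 times and experiments were repeated with independent dissections. The labels give total RNA as the molecule where the protocol has poly(A)+ RNA. The software behind the average differences is not given in the sources used here. From the deposited intensity, 66 control probe sets were left out, values below the floor of 693.5 were raised to it, and log2 was taken. Probe sets above 1387 on at least 2 arrays were tested (5832, or 46.9%), of which 540 have no or several symbols.

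One limma fit (3.58.1, R 4.3.3) fitted 1 mean a group over all 6 groups, left 6 residual degrees of freedom and gave all tests, with Benjamini-Hochberg adjustment over all tested probe sets. A gene is called at an adjusted p under 0.05, on its probe set with the highest mean. The code was tested on simulated data. Platform symbols named genes. RefSeq (GRCm38.p6) gave coordinates and promoters.

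Every probe set of the 8 genes is named, with at most 4 called genes per list and direction, the 10 genes most like the mean profile, and a few list genes that did not pass, which were chosen after their values were seen. The members, the gene lists and the markers were chosen with earlier results of these data known. Alternatives covered the floor, the filter, an arcsinh scale, quantile normalization, a replicate block and leaving out arrays. The number of arrays, 2 a group, limits the precision.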

Additional observations from a re-analysis of the deposited data

How the results depend on the processing

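Over 22 alternatives 854 member values were recomputed. Of these, 806 kept their direction and their side of the threshold or stayed within the replicate spread, and 20 moved. In the tested comparisons 25 changed sign and 3 newly passed. A sign change of a ventral value within the replicate spread, as for Chga, counts among the 806. The ventral differences of 7 genes stayed above 0 throughout, and that of Chga ran from -0.34 to 0.16. Of the 8 members, 1, Resp18, passed dorsal against rostral and occipital with a floor of 347 (log2 -1.94, adjusted p = 0.00216), on an arcsinh scale (adjusted p = 0.00783) and with a replicate block (adjusted p = 0.0449), in a range of 0.00216 to 1 over its alternatives. With a floor of 1387 it had -0.047 (adjusted p = 1). Its size depends on the floor because the dorsal arrays are at it. Leaving out single arrays gave 0 of 8 throughout.

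Same-numbered arrays deviated together in 14 of 15 pairs of groups (r above 0.1), with r from -0.06 for rostral and occipital to 0.56, and 10 of 12 arrays had an array of their own number as the closest of another group. The numbers were not treated as pairs because the rule asked for every pair of groups to exceed 0.1 and rostral and occipital did not. The other pairs did exceed it, so shared deviations by number cannot be set aside. With the replicate block, called genes numbered 21 for dorsal (9 without it), 754 for ventral (460) and 212 for medial (62), and called list genes 18 for ventral (11) and 5 for medial (2). The members' counts for rostral against occipital and for the hemisphere stayed at 0.

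A floor of 1387 gave 4 list genes in the medial piece and 1 gene for the hemisphere, and no filter gave 6 for the hemisphere. Without all rostral and occipital arrays, 4 list genes and 144 genes passed in the medial piece. Without both the second rostral and the first occipital array, an alternative chosen after seeing the data, 26 genes passed for dorsal, and 35 genes and 4 list genes for medial. Leaving out single arrays gave 1 to 8 genes for dorsal, 62 to 527 for ventral (62 without ventral replicate 1) and 0 to 107 for medial (0 without medial replicate 2), and 2 to 13 list genes for ventral and 0 to 4 for medial. Medial Sst and Npy both lost their call without medial replicate 2.

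In the tested comparisons signs changed as follows. Chga dorsal was -0.047 with a floor of 1387 and -0.096 without both arrays. Rostral minus occipital without both arrays was 0.41 for Chga, 0.13 for Chgb and 0.022 for Scg5, and Scg5 had 0.0048 with quantile normalization. For the hemisphere, Resp18 had -0.25 with a floor of 1387, and Nrgn 0.22 with a floor of 347 and 0.16 on the arcsinh scale. Without single arrays, Chga dorsal ranged from -0.23 to 0.53. Rostral minus occipital ranged from -0.092 to 0.33 for Scg2, -1.39 to 0.14 for Chga, -0.11 to 0.073 for Chgb, -0.090 to 0.018 for Scg5, -0.50 to 0.081 for Vsnl1, -0.93 to 0.78 for Nrgn and -0.43 to 0.11 for Hap1. For the hemisphere, Nrgn ranged from -0.84 to 0.70 and Hap1 from -0.49 to 0.020. The cause of these changes was not tested. Resp18 and Nrgn were not tested under the filter of at least 6 arrays, and dorsal and rostral comparisons could not be run without all rostral and occipital arrays.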
